A study of Mus musculus with 9 samples.

Results

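This report describes 8 genes of glycogen synthesis and breakdown in the lenses of *Atf4* null and wildtype mouse embryos. The genes are *Pygm*, *Pygl*, *Pygb*, *Gys1*, *Gbe1*, *Ugp2*, *Pgm1* and *Ppp1r3c*, chosen by name with earlier results of these data known, and they are 8 of 55416 genes counted. RNA was taken from the paired lenses of single embryos at E16.5 and sequenced as 1 library per embryo, with 5 wildtype and 4 *Atf4* null libraries. The comparison asked what ATF4, a transcription factor that cells make under amino acid shortage and other stress, does in the embryonic lens. The null embryos carried 2 copies of the germline *Atf4*tm1Tow allele, in which a neomycin resistance cassette replaces the last exons of the gene, so every tissue of the embryo lacked the factor. Wildtype embryos were littermates from matings of heterozygotes on a mixed C57Bl/6/129 background, the sexes were not separated, and no genotyping was done for the loss of *Bfsp2* known from strain 129, while *Bfsp2* had 11832 to 25793 counts in the 9 libraries. The libraries were made from the whole lens, so fewer cells of a type and less RNA per cell cannot be told apart.

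Glycogen is the branched glucose polymer in which cells store sugar. It is built from glucose-1-phosphate, which phosphoglucomutase and UDP-glucose pyrophosphorylase turn into UDP-glucose, by glycogen synthase and the branching enzyme. It is broken down to glucose-1-phosphate by glycogen phosphorylase, for which mammals have a muscle, a liver and a brain isozyme, each encoded by a gene of its own. The lens has no blood vessels of its own and draws much of its energy from glycolysis, into which the products of glycogen breakdown feed.

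*Atf4* itself, which checks the labels, ranged from 119 to 155.5 counts per 1000000 gene counts (CPM, scaled by TMM factors) in wildtype and from 0.582 to 10.6 in *Atf4* null libraries. Gene counts per library ran from 7440807 to 8906996. Wildtype replicate 5 stood apart from the other libraries, with 1.08% of its gene counts on a list of 14 skeletal muscle genes, against 0.00822% to 0.0188% in the other 8 libraries, and 1.52% on a list of 8 mesenchyme genes, against 0.0232% to 0.0253% in the other wildtype and 0.0198% to 0.0598% in *Atf4* null libraries. Results for the 8 genes are therefore given with and without it. In wildtype replicates 1 to 4, most counts of the mesenchyme list were of *Pdgfra*, with 1419 to 1765 counts. Most counts of the muscle list in these libraries were of *Actn2*, with 429 to 844 counts. In *Atf4* null libraries *Pdgfra* had 46 to 263 counts. *Col1a1* had 794 to 1457 counts there, against 70 to 230 in wildtype replicates 1 to 4. Genes of other cell types also differed by genotype in edgeR's quasi-likelihood test. With all 9 libraries, 3 of 6 retina and neuron genes passed as higher in *Atf4* null lenses. Passing as lower were 1 of 6 erythroid genes tested and 1 of 8 genes of the mesenchyme list, *Pdgfra*. The level of *Pdgfra* differed from the rest of that list. It was at 179.6 to 227 CPM in wildtype replicates 1 to 4, where *Col1a1* was at 8.99 to 29.1 CPM. Without wildtype replicate 5, 6 of the mesenchyme genes, 4 of the retina and neuron genes, 2 of 4 pigment cell genes tested and 1 of 7 muscle genes tested passed as higher, and 2 of the erythroid genes and *Pdgfra* as lower. The part of these transcripts in the results on the glycogen genes was not tested. Lens fiber and lens epithelium genes were present in every library, although *Lim2*, a fiber cell gene, was listed at 0 in all 9 libraries and *Lgsn* in the *Atf4* null libraries and wildtype replicate 2. A list of 10 lens fiber genes took 9.93% to 10.4% of gene counts in the other 4 wildtype libraries, 6.40% in wildtype replicate 5 and 5.43% to 10.4% in *Atf4* null libraries. A list of 6 lens epithelium genes took 0.123% to 0.143%, 0.105% and 0.0664% to 0.0999% in the same order.

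Transcripts of the muscle and liver phosphorylase genes, *Pygm* and *Pygl*, were lower in *Atf4* null lenses, by 2.78-fold and 6.03-fold. The brain isozyme gene *Pygb* and the genes of glycogen synthesis did not pass the test. All 8 genes were counted in every library, with at least 21 counts, and all 8 passed the filter on low counts. Of the 8, 2 passed with an adjusted p below 0.05 in edgeR's quasi-likelihood test, both lower in *Atf4* null lenses, where 5.9% of the 14903 genes tested passed in either direction 3.67% passed as lower and 2.23% as higher. An unadjusted p below 0.05 was reached by 3 of the 8 and by 19.6% of all genes. The groups did not overlap for 3 of the 8, *Pygm*, *Pygl* and *Ppp1r3c*, each lower in the *Atf4* null libraries, against 10.2% of all genes in either direction and 5.58% in that direction. The median log2 fold change of the 8 genes was -0.31, beside 0.00072 over all genes tested.

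**Figure D1:**
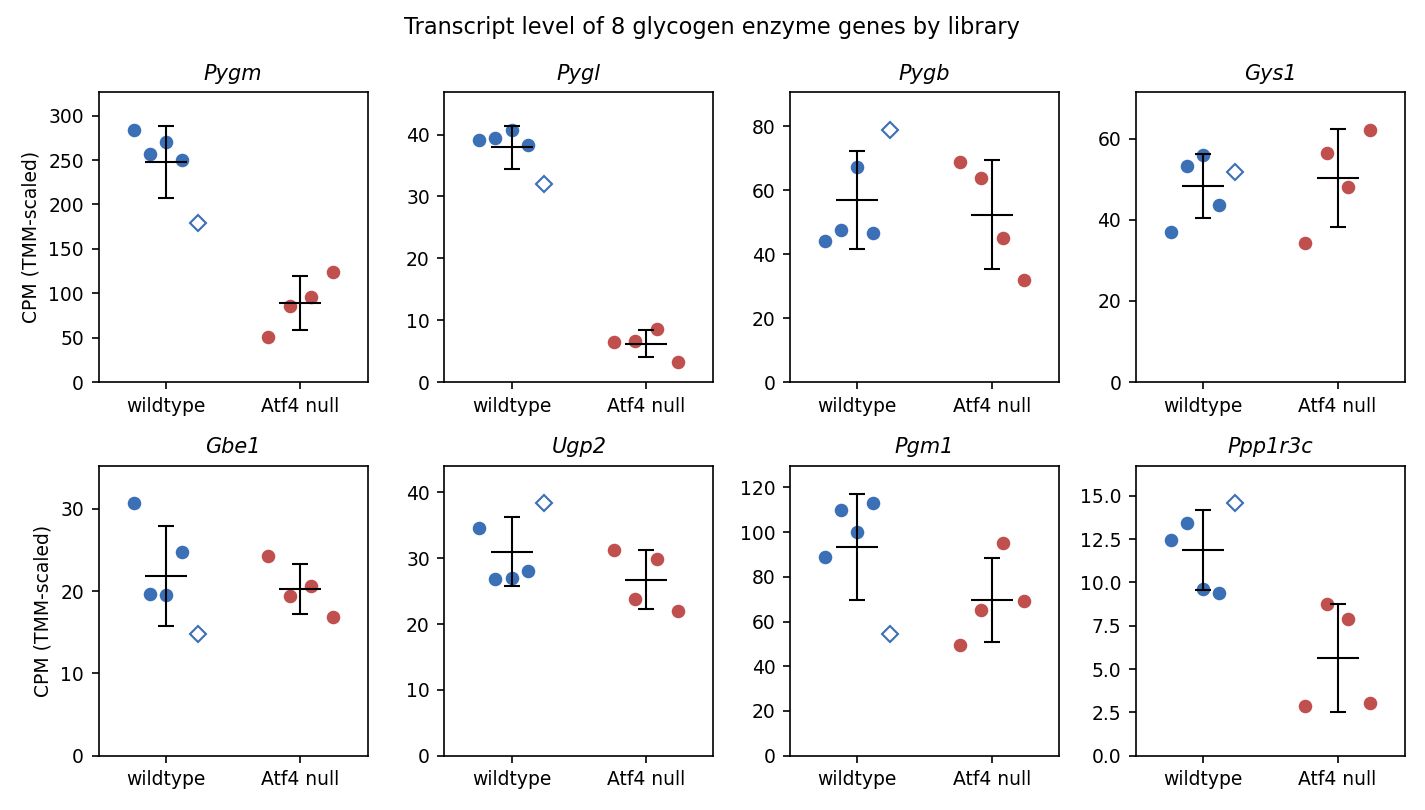
CPM (TMM-scaled, linear axes that start at 0) of the 8 genes in 5 wildtype (blue) and 4 *Atf4* null (red) libraries, 1 point per library, with the mean and SD as a bar with whiskers and wildtype replicate 5 as an open diamond. For *Pygm*, *Pygl* and *Ppp1r3c* all red points lie below all blue points, with *Pygl* at 32.0 to 40.8 CPM in wildtype and 3.20 to 8.55 CPM in *Atf4* null libraries.

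The bases upstream of the 3 phosphorylase genes are shown because *Pygm* and *Pygl* fell while *Pygb* did not pass the test. The sequences are from RefSeq (GRCm38.p6) and hold the 250 bases before the annotated start, 5′ to 3′ on the strand of the gene, at chr19:6384158-6384407 (plus strand) for *Pygm*, chr12:70227684-70227933 (minus strand) for *Pygl* and chr2:150786546-150786795 (plus strand) for *Pygb*. Capitals mark the cAMP response element core TGACG, whose reverse complement is CGTCA, and the E-box CAGCTG, which reads the same on both strands.
Pygm: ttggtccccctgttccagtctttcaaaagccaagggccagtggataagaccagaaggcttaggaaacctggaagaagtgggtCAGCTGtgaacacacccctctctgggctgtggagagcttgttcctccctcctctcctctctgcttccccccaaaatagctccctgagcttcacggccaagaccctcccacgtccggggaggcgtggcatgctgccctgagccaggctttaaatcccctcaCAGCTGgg
Pygl: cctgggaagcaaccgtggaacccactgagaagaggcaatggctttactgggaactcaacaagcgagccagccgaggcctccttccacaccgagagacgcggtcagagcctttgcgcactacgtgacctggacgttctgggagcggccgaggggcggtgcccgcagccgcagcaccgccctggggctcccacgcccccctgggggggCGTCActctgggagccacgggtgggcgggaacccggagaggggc
Pygb: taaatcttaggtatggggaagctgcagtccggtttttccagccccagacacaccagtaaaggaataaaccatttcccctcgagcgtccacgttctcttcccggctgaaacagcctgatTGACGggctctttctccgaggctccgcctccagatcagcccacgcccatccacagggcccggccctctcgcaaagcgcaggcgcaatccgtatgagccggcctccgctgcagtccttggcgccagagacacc

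RefSeq start sites were found for all 8 genes, with 2 sites for *Ugp2*, and the 300 bases around each were searched on both strands. The motif TGATGNAA, the form of the composite element that ATF4 binds together with C/EBP factors, and its more specific form TGATGCAA were found at none of the 8 genes, and 3.97% and 0.895% of 32851 mouse promoters of the same length hold them. The full cAMP response element TGACGTCA, held by 1.79% of promoters, was not found either. Its core TGACG, which lies within it and which 20.8% of promoters hold, was found once at *Pygl*, as its reverse complement with the first base 44 bases before the start, and once at *Pygb*, 132 bases before it. The E-box CAGCTG, a motif of the kind that myogenic factors bind and which was added after the sequences had been seen, is held by 16.3% of promoters. It occurred at 2 positions at *Pygm*, 168 and 8 bases before the start, at 2 positions at *Gys1*, and once each at *Ppp1r3c* and the second site of *Ugp2*. These matches describe the letters in these windows only.

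*Pygm*, the muscle isozyme of glycogen phosphorylase (ENSMUSG00000032648, GRCm39 chromosome 19, 6430569 to 6448538, plus strand), had the highest level of the 8 genes per length. Its level was 284, 257, 269.8, 250.4 and 179.6 CPM in wildtype replicates 1 to 5. It was 51.0, 86.3, 95.5 and 124 CPM in *Atf4* null replicates 1 to 4. Every *Atf4* null library lay below every wildtype library. Wildtype replicate 5, which alone held muscle transcripts in number, was the lowest of its group. The means were 248 ± 40.4 CPM (SD, n = 5) and 89.3 ± 30.2 CPM (SD, n = 4). This was a log2 fold change of -1.48 with a standard error of 0.22 and a 95% interval from -1.94 to -1.01, and the adjusted p of edgeR's quasi-likelihood test was 0.00139. Among all genes tested, *Pygm* ranked 117 by p. Without wildtype replicate 5 the log2 fold change was -1.57 and the adjusted p was 1.0e-04, and the mean of the remaining wildtype libraries was 265 ± 14.9 CPM (SD, n = 4).

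*Pygm* is named for muscle, so its level was set beside the marker lists library by library. Wildtype replicate 5 had the highest muscle share of the 9 libraries and a lower *Pygm* level than any other wildtype library, while its lens fiber share was also lower. A ratio added after the values had been seen divided the counts of *Pygm* by those of the lens fiber list. Most counts of that list came from the crystallin genes *Cryaa*, *Crybb1* and *Cryba1*, with 420031, 148614 and 110401 in wildtype replicate 1. There were 25.3, 24.5, 25.1, 22.9 and 29.4 counts of *Pygm* per 10000 counts of the fiber list in wildtype replicates 1 to 5, and 10.8, 11.8, 13.6 and 11.1 in *Atf4* null replicates 1 to 4. The groups stayed apart on this scale, and the *Atf4* null libraries lay closer together, with a coefficient of variation of 10.6% for the ratio and 33.8% for CPM. The same ratio widened the spread of *Pygl* among *Atf4* null libraries, from 35.7% to 50.7%, and that of *Pygb*, from 32.7% to 60.7%, while that of *Gys1* narrowed from 24.1% to 13.9% and that of *Ppp1r3c* was 55.1% and 54.7%. Of 9 fiber genes tested, 2 passed as lower in *Atf4* null lenses, among them *Bfsp1*, which forms the beaded filaments of fiber cells. *Bfsp1* was at 4397 to 8147 CPM in wildtype and 1620 to 4100 CPM in *Atf4* null libraries. The ratio thus sets *Pygm* mainly beside crystallin transcripts and not beside every fiber gene. Per 10000 counts of the epithelium list, *Pygm* ranged from 1736 to 2130 in wildtype and from 603 to 1729 in *Atf4* null libraries, so the groups came within a small gap of each other, and 4 of the 6 genes of that list themselves passed as lower. The part of these lists in the fall of *Pygm* was not tested.

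**Figure D2:**
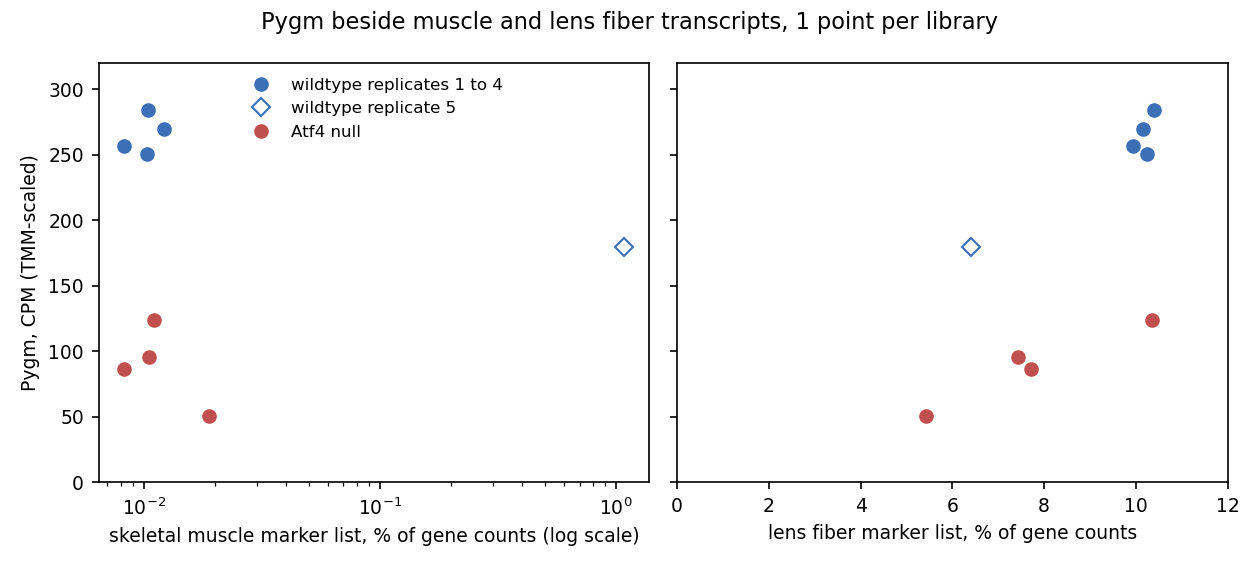
*Pygm* level (CPM, TMM-scaled) against the share of gene counts on a skeletal muscle list (left, log axis) and a lens fiber list (right, linear axis), 1 point per library, with wildtype replicate 5 as an open diamond. That library lies at 1.08% muscle and 179.6 CPM of *Pygm*, and at a given fiber share the *Atf4* null points (red) lie below the wildtype points (blue).

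*Pygl*, the liver isozyme of the same enzyme (ENSMUSG00000021069, GRCm39 chromosome 12, 70237585 to 70278262, minus strand), had the largest estimated fall among the 8 genes. Its level was 39.2, 39.4, 40.8, 38.4 and 32.0 CPM in wildtype replicates 1 to 5. It was 6.48, 6.72, 8.55 and 3.20 CPM in *Atf4* null replicates 1 to 4. The wildtype libraries other than replicate 5 were nearly level, and all *Atf4* null libraries lay far below them. The means were 37.9 ± 3.42 CPM (SD, n = 5) and 6.24 ± 2.23 CPM (SD, n = 4), which rest on 299 to 330 counts per wildtype and 22 to 78 counts per *Atf4* null library. The fit gave a log2 fold change of -2.59 with a standard error of 0.26 and a 95% interval from -3.15 to -2.04, and the adjusted p of edgeR's quasi-likelihood test was 6.7e-05. *Pygl* ranked 28 by p among all genes tested. Without wildtype replicate 5 the log2 fold change was -2.64.

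Set against the fiber list, *Pygl* gave 3.49 to 5.25 counts per 10000 in wildtype and 0.285 to 1.38 in *Atf4* null libraries. Set against the epithelium list, it gave 266 to 321 counts per 10000 in wildtype and 44.6 to 95.5 in *Atf4* null libraries. The groups did not overlap on either scale. Most counts of the epithelium list came from *Pax6* and *Gja1*, and most of the fiber list from crystallin genes. *Cdh1*, also on the epithelium list, was at 130.3 to 204.1 CPM in wildtype and 5.58 to 20.8 CPM in *Atf4* null libraries. The ratios therefore do not stand for every gene of these lists. The part of either list in the fall of *Pygl* was not tested.

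*Pygb*, the brain isozyme (ENSMUSG00000033059, GRCm39 chromosome 2, 150628628 to 150673685, plus strand), did not pass the test. Its level was 44.3, 47.6, 67.3, 46.6 and 78.9 CPM in wildtype replicates 1 to 5. It was 69.0, 63.8, 45.1 and 31.9 CPM in *Atf4* null replicates 1 to 4. The ranges overlapped over most of their length, wildtype replicate 5 was the highest of all 9 libraries, and the *Atf4* null libraries were spread widely. It had a log2 fold change of -0.12 with a 95% interval from -0.63 to 0.40 and an adjusted p of 0.855 in edgeR's quasi-likelihood test, and its sign turned under library-size scaling and without wildtype replicate 5. A list of 6 retina and neuron genes took 0.0115% to 0.0196% of the counts in wildtype and 0.0212% to 0.0706% in *Atf4* null libraries, and its part in the level of this isozyme was not tested.

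Levels of different genes were compared per length, as FPKM, which are TMM-scaled CPM divided by the summed exon length in kilobases. On this scale *Pygm* stood at 64.7 FPKM, *Pygb* at 5.60 and *Pygl* at 5.41 in wildtype lenses, so the muscle isozyme gene made up 85.1% ± 3.52 (SD, n = 5) of the phosphorylase transcripts of the lens. In *Atf4* null lenses the levels were 23.3 FPKM for *Pygm*, 5.16 for *Pygb* and 0.890 for *Pygl*. The 3 genes together fell from 75.7 ± 9.93 FPKM (range 59.1 to 84.0) to 29.3 ± 6.20 FPKM (range 21.0 to 36.0), and the groups did not overlap.

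The makeup of the phosphorylase transcripts was also read library by library. *Pygm* made up 88.2%, 86.7%, 85.0%, 86.7% and 79.1% of it in wildtype replicates 1 to 5 and 63.3%, 75.6%, 81.5% and 90.0% in *Atf4* null replicates 1 to 4. Its share ranged widely among the *Atf4* null libraries, and their range spanned that of wildtype. *Pygl* made up 7.19% ± 0.391 (SD, n = 5) in wildtype and 3.22% ± 1.39 (SD, n = 4) in *Atf4* null lenses, with no overlap between the libraries. *Pygb* took 7.70% ± 3.21 (SD, n = 5) and 19.2% ± 10.1 (SD, n = 4), and its highest share, 32.3%, was in *Atf4* null replicate 1, where *Pygm* was lowest. The shares depend on the length used. With that of the longest transcript in place of summed exons, *Pygm* made up 77.7%, *Pygl* 11.9% and *Pygb* 10.4% in wildtype, so that *Pygl* came before *Pygb*, and 69.9%, 5.15% and 25.0% in *Atf4* null lenses. These shares are descriptions, with no test.

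**Figure D3:**
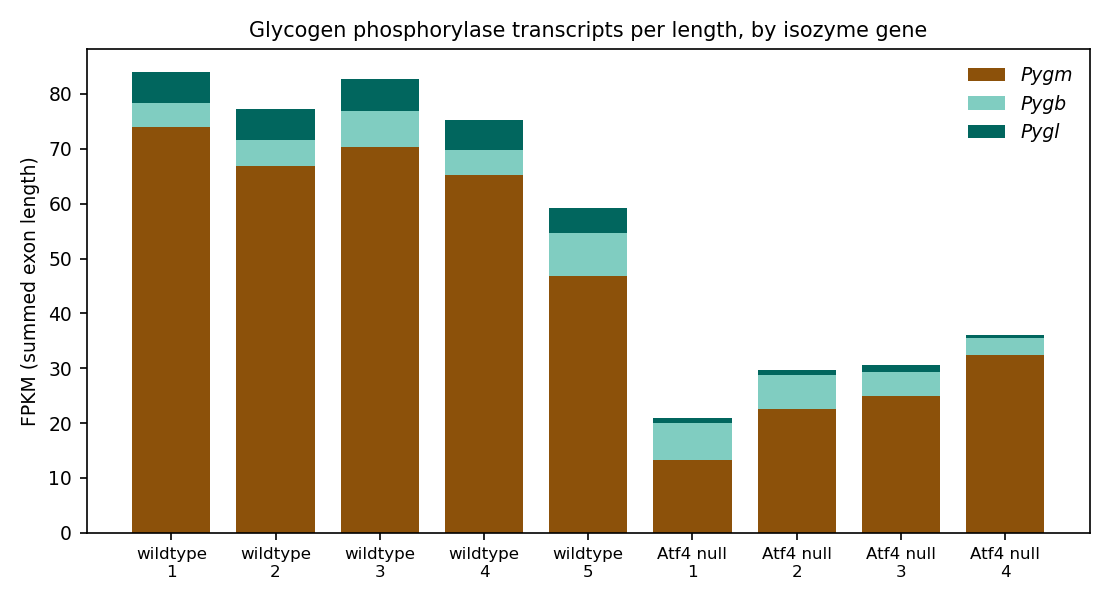
Stacked FPKM (summed exon length, linear axis from 0) of *Pygm*, *Pygb* and *Pygl* in each of the 9 libraries. The total bar is 59.1 to 84.0 FPKM high in wildtype and 21.0 to 36.0 FPKM in *Atf4* null libraries, *Pygm* is the largest part of every bar, and the *Pygl* part is thinnest in the *Atf4* null libraries.

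*Gys1*, the muscle-type glycogen synthase that adds glucose to the growing chain (ENSMUSG00000003865, GRCm39 chromosome 7, 45084175 to 45106058, plus strand), was at 37.0, 53.3, 56.1, 43.5 and 51.7 CPM in wildtype replicates 1 to 5. It was at 34.3, 56.5, 48.1 and 62.2 CPM in *Atf4* null replicates 1 to 4. The groups overlapped almost wholly. In the fit, *Gys1* had a log2 fold change of 0.06 with a 95% interval from -0.35 to 0.46 and an adjusted p of 0.92 in edgeR's quasi-likelihood test, so a change of the size seen for *Pygm* lay outside the interval. Its sign turned without any 1 of 3 libraries, *Atf4* null replicates 2 and 4 and wildtype replicate 1. The liver synthase gene *Gys2* had 0 counts in all 9 libraries.

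*Gbe1*, the branching enzyme (ENSMUSG00000022707, GRCm39 chromosome 16, 70110715 to 70366609, plus strand), was at 30.7, 19.6, 19.5, 24.8 and 14.8 CPM in wildtype replicates 1 to 5 and at 24.2, 19.4, 20.6 and 16.9 CPM in *Atf4* null replicates 1 to 4. All *Atf4* null values lay inside the wildtype range. *Gbe1* had a log2 fold change of -0.11 with a 95% interval from -0.60 to 0.39 and an adjusted p of 0.865 in edgeR's quasi-likelihood test, with the opposite sign under library-size scaling and without wildtype replicate 1.

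*Ugp2*, UDP-glucose pyrophosphorylase, which makes the UDP-glucose that glycogen synthase uses (ENSMUSG00000001891, GRCm39 chromosome 11, 21270384 to 21321276, minus strand), was at 34.7, 26.9, 27.1, 28.1 and 38.3 CPM in wildtype replicates 1 to 5 and at 31.2, 23.9, 29.9 and 22.0 CPM in *Atf4* null replicates 1 to 4. The libraries of both groups were interleaved. *Ugp2* had a log2 fold change of -0.21 with a 95% interval from -0.61 to 0.19 and an adjusted p of 0.606 in edgeR's quasi-likelihood test.

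*Pgm1*, phosphoglucomutase, which interconverts glucose-1-phosphate and glucose-6-phosphate and so serves both directions (ENSMUSG00000025791, GRCm39 chromosome 4, 99786394 to 99844492, plus strand), had the second highest mean level per length of the 8 genes. It was at 88.7, 110.0, 100.3, 113 and 54.3 CPM in wildtype replicates 1 to 5. It was at 49.7, 65.3, 95.2 and 69.0 CPM in *Atf4* null replicates 1 to 4. The overlap came from *Atf4* null replicate 3, which was above wildtype replicate 1, and from wildtype replicate 5, the lowest of its group by far. The means were 93.2 ± 23.7 CPM (SD, n = 5) and 69.8 ± 18.9 CPM (SD, n = 4). The log2 fold change was -0.42 with a 95% interval from -0.89 to 0.05 and edgeR's quasi-likelihood test gave an adjusted p of 0.322. Without wildtype replicate 5 the wildtype mean was 103 ± 10.9 CPM (SD, n = 4), the log2 fold change was -0.56 with a 95% interval from -0.92 to -0.19, and the adjusted p was 0.057, which missed the threshold.

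*Ppp1r3c*, a targeting subunit that brings protein phosphatase 1 to glycogen, where it activates the synthase and inactivates the phosphorylase (ENSMUSG00000067279, GRCm39 chromosome 19, 36708523 to 36714070, minus strand), was the gene with the fewest counts. Its level was 12.5, 13.5, 9.64, 9.37 and 14.6 CPM in wildtype replicates 1 to 5. It was 2.89, 8.76, 7.90 and 3.06 CPM in *Atf4* null replicates 1 to 4. All *Atf4* null libraries lay below all wildtype libraries, but a pair of them lay close to the lowest wildtype values and the other pair far below. The means were 11.9 ± 2.31 CPM (SD, n = 5) and 5.65 ± 3.11 CPM (SD, n = 4), from 21 to 136 counts per library. The log2 fold change was -1.07 with a standard error of 0.38 and a 95% interval from -1.89 to -0.25. The adjusted p of edgeR's quasi-likelihood test was 0.129, from an unadjusted p of 0.0144, and it did not pass under any of 17 alternatives, where the adjusted p ran from 0.0622 to 0.234.

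**Figure D4:**
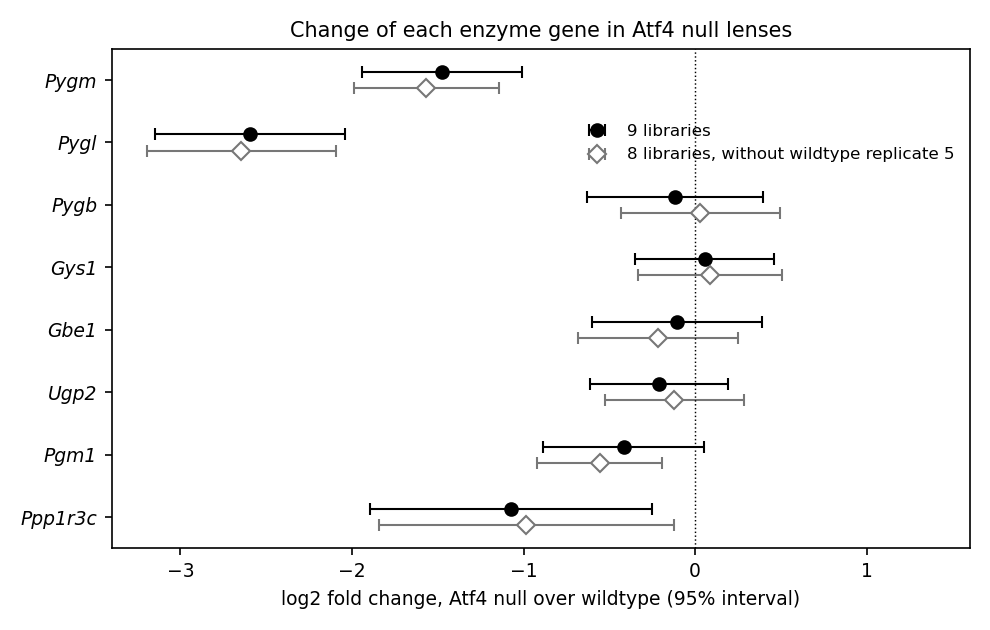
Log2 fold change, *Atf4* null over wildtype, of the 8 genes with 95% intervals, from 9 libraries (filled circles) and from 8 libraries without wildtype replicate 5 (open diamonds). *Pygm* and *Pygl* lie at -1.48 and -2.59, the interval of *Ppp1r3c* is the widest, and the other genes lie between -0.56 and 0.09 in both fits.

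When wildtype replicate 5 was left out, edgeR's quasi-likelihood test passed the same 2 genes, both lower, against 8.33% of 14493 genes in either direction and 4.96% lower. The groups then did not overlap for the same 3 genes, against 15.4% of genes in either direction and 8.75% lower. With edgeR's exactTest on these 8 libraries, added after the data had been seen, *Pgm1* passed as well with an adjusted p of 0.032, so that 3 of the 8 genes were lower, against 10.7% of genes in either direction and 6.09% lower. Under library-size scaling the median log2 fold change of all genes moved to 0.12, and that of the 8 genes stood at -0.18.

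The order of the levels per length was read with the spread between libraries. In wildtype lenses *Pygm* (46.8 to 74.0 FPKM) lay above *Pgm1* (14.8 to 30.7 FPKM) in every library, and both lay above the other 6 genes. *Ugp2*, *Gys1*, *Pygb* and *Pygl* followed with means of 6.21, 6.15, 5.60 and 5.41 FPKM, which did not differ beyond their spread, and *Gbe1* and *Ppp1r3c* came last at 3.97 and 3.55 FPKM. In *Atf4* null lenses *Pygm* and *Pgm1* overlapped, at 13.3 to 32.4 FPKM and 13.5 to 25.9 FPKM. *Pygl* was then the lowest of the 8 genes at 0.890 ± 0.318 FPKM (SD, n = 4), and its range overlapped that of *Ppp1r3c*, at 1.69 ± 0.929 FPKM (SD, n = 4). This order below *Pgm1* depends on the length used: per length of the longest transcript, *Pygl* ranged from 1.02 to 2.715 FPKM and *Ppp1r3c* from 0.863 to 2.61 FPKM in *Atf4* null lenses, and *Pygl*, *Gys1* and *Pygb* stood above *Ugp2* in wildtype means. Between libraries of 1 genotype, *Pygl* varied least in wildtype, with a coefficient of variation of CPM of 9.01%, and *Ppp1r3c* most in *Atf4* null lenses, with 55.1%.

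For some members, part of the exon sequence is shared with a gene on the other strand. This was so for 950 of 4991 exon bases of *Ugp2* with *Vps54* and 299 with *Gm12043*, 615 of 3679 of *Pgm1* with *Itgb3bp*, and 420 of 7854 of *Gys1* with *Ruvbl2* and 604 with *Gm72669*. *Gm12043* had 0 counts, and *Gm72669* is not among the genes counted. The library kit keeps the strand, but the strand setting of the counting was not stated, so reads of these partners may not have been kept apart.

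A list of 27 other genes that make, break down or regulate glycogen or handle its sugar phosphates held 22 genes that could be tested, while *Gys2*, *Phkg1*, *Ppp1r3a*, *Ppp1r3d* and *Ppp1r3g* did not pass the filter on low counts. Of these, 1 passed in edgeR's quasi-likelihood test, lower in *Atf4* null lenses, and 21 did not, a share near the 5.9% of all genes. The estimates were lower for 15 and higher for 7, with a median log2 fold change of -0.06, but under library-size scaling they were lower for 9 and higher for 13. The 1 gene was *Gpi1*, glucose-6-phosphate isomerase, which links glucose-6-phosphate to glycolysis. It was at 229, 239, 253.5, 272 and 222 CPM in wildtype replicates 1 to 5 and at 152, 166, 148 and 92.6 CPM in *Atf4* null replicates 1 to 4, so the groups did not overlap. The log2 fold change of *Gpi1* was -0.80, and edgeR's quasi-likelihood test gave it an adjusted p of 0.0079.

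The other genes named by their high level per length were *Gsk3b* and *Hk2*. *Gsk3b*, a kinase that phosphorylates and inhibits glycogen synthase, stood at 187 ± 10.01 CPM (SD, n = 5) and 176 ± 10.9 CPM (SD, n = 4), with a log2 fold change of -0.09. *Hk2*, a hexokinase that makes glucose-6-phosphate from glucose, stood at 126 ± 26.6 CPM (SD, n = 5) and 91.6 ± 11.6 CPM (SD, n = 4), with a log2 fold change of -0.46 and an adjusted p of 0.123 in edgeR's quasi-likelihood test. Wildtype replicate 5 was the lowest wildtype library for *Hk2*, at 89.0 CPM. When it was left out, the log2 fold change was -0.55 and the adjusted p was 0.0194, so that *Hk2* passed as lower and 2 of the 22 genes tested passed, a share near the 8.33% of all genes in that fit.

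Further members of the list were looked at after their values had been seen. Phosphorylase kinase, which activates phosphorylase, was measured through *Phka1*, *Phka2*, *Phkb* and *Phkg2*, with log2 fold changes of -0.04, 0.03, -0.35 and 0.36, and none passed. *Phkg2* was at 14.8 to 19.5 CPM in wildtype and at 20.2 to 25.2 CPM in *Atf4* null libraries. The glycogen primer *Gyg1* had a log2 fold change of -0.60 and the glucose-6-phosphate transporter *Slc37a4* one of -0.78, with adjusted p-values of 0.138 and 0.129 in edgeR's quasi-likelihood test. With 1 library left out, the lowest adjusted p-values of that test were 0.0561 and 0.0625. Wildtype replicate 5 was at 21.4 CPM for *Gyg1*, the other wildtype libraries at 28.5 to 32.4 and *Atf4* null libraries at 13.5 to 25.5 CPM. For *Slc37a4* these levels were 7.82, 10.4 to 15.4 and 6.98 to 7.32 CPM. The groups of *Slc37a4* and *Phkg2* did not overlap, as for 10.2% of all genes tested. *Ppp1r3a*, the muscle relative of *Ppp1r3c*, had 46 counts in wildtype replicate 5 and 0 counts in the other 8 libraries.

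**Figure D5:**
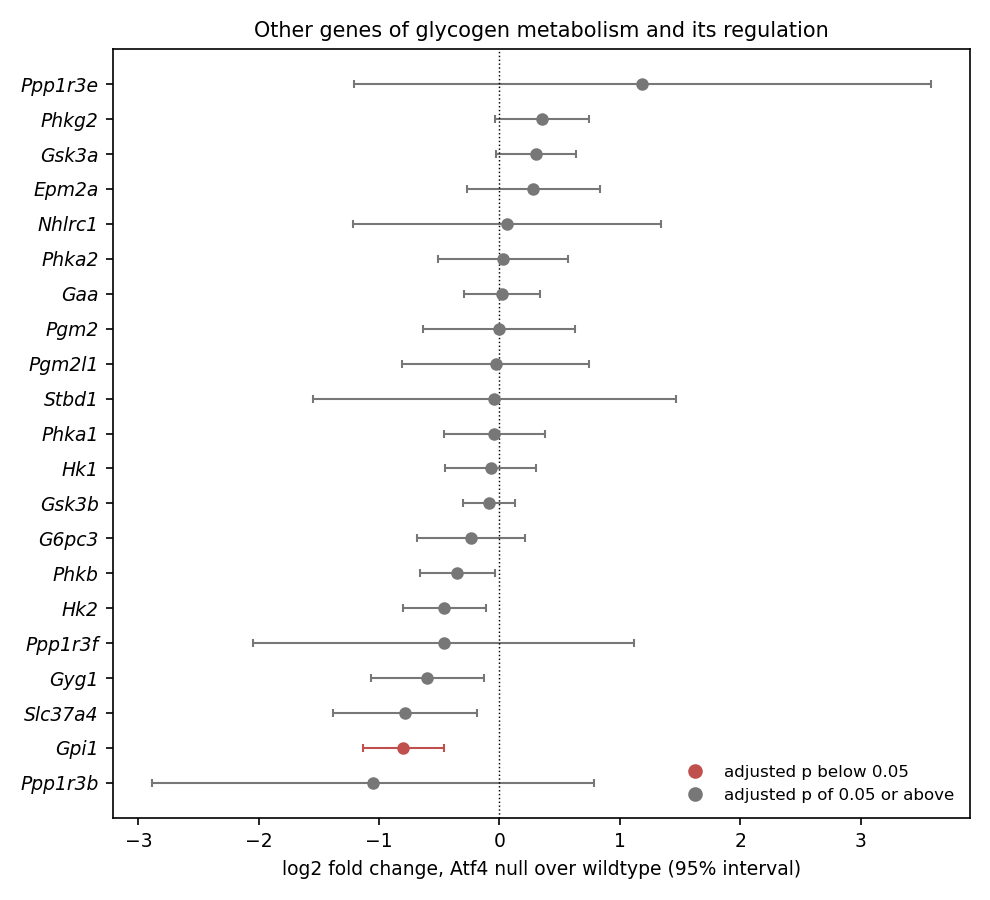
Log2 fold change, *Atf4* null over wildtype, with 95% intervals for 21 of the 22 tested genes of the list of other glycogen genes, ordered by estimate. Only *Gpi1* (red), at -0.80, has an adjusted p below 0.05 in edgeR's quasi-likelihood test, and the widest intervals belong to genes with few counts such as *Ppp1r3e* and *Ppp1r3b*.

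The genes most like *Pygm* and *Pygl* across libraries were found by Pearson correlation of log2 CPM among genes with a mean of at least 10 CPM. Such values mostly follow the split by genotype that all points share, and they are descriptions. For *Pygm* over 9 libraries, among 9370 genes, they were *Sox1ot* (r = 0.996), *Dnase2b* (r = 0.996) and *Myo7b* (r = 0.988). *Dnase2b* encodes the nuclease that degrades DNA when fiber cells lose their nuclei, and it stood at 54.5 to 107 CPM in wildtype and 12.6 to 35.8 CPM in *Atf4* null libraries. Over the 8 libraries without wildtype replicate 5, they were *Sox1ot* (r = 0.998), *Atp5f1b* (r = 0.997) and *Dnase2b* (r = 0.996). For *Pygl* over 9 libraries they were *Erich5* (r = 0.992), *Pdcd4* (r = 0.988) and *Atf4* itself (r = 0.988). Over 8 libraries they were *Colec12* (r = 0.996), *Erich5* (r = 0.994) and *Pdgfra* (r = 0.992), the last a growth factor receptor that stood at 179.6 to 227 CPM in these wildtype and 6.70 to 26.2 CPM in *Atf4* null libraries. No gene was among the 3 most like both phosphorylase genes.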

How the data were processed

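Libraries were made with the SMARTer Stranded Pico kit by a sequencing company. As the authors' methods state, reads were trimmed with Trim Galore, reads of ribosomal RNA were removed with HISAT2, and the rest were aligned to GRCm39 and assigned to genes of Ensembl release 104 with HTSeq. Each deposited file holds 1 column of whole, unnormalized counts, and 9 were used. The 5 summary entries that name no gene, 44.6% to 47.7% of the reads of a library, were left out. Reads that HTSeq could not place on a single gene are among those entries. Gene identifiers were joined to GENCODE vM39 (GRCm39), with a symbol for 54749 of 55416. No library repeated another, since chi-square per degree of freedom was at least 6.46 in 36 pairs.

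Genotypes were compared with edgeR 4.0.16 in R 4.3.3 (filterByExpr, TMM factors, glmQLFit and glmQLFTest, no covariate), with Benjamini-Hochberg adjustment over 14903 genes and a threshold of 0.05. Each library is 1 embryo. FPKM divide TMM-scaled CPM by summed exon length. Gene sequences and motifs were handled with Python 3.11.15. The procedure was tested on simulated counts with 200 changed genes. The members and lists were chosen with earlier results of these data known. Genes named were the 8 members, the genes of the wider list that passed or were among its 3 highest in FPKM, and for each member that passed the 3 genes most correlated with it; others are named as chosen after their values were seen. Of the wider list, 1 gene enters the counts and is not reported here. Wildtype sample titles name other libraries than the file names do, so only the numbering within wildtype is in doubt.

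The alternatives were edgeR's exactTest, DESeq2 1.42.0, library size in place of TMM, TMM without 16 crystallin genes, no filter, a minimum of 10 counts in each library, a robust fit, the replicate number as a block and each library left out. The exactTest without wildtype replicate 5 was added after the data had been seen. In 4 pairs of libraries with the same number, the correlations of deviations from the group means ran from -0.131 to 0.008, so the numbers were not taken to pair the samples. The labels name no litter, so litter was not in the model and its part in the results was not tested.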

Additional observations from a re-analysis of the deposited data

Results flagged for a closer look

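The level of *Pygl* in wildtype replicate 5, 32.0 CPM, lay apart from the other wildtype libraries, which ran from 38.4 to 40.8 CPM. The gap to its nearest neighbour was 0.724 of the range of the group. It was the 1 such library among 24 groups of values checked, which were the CPM of the 8 members and *Gpi1* and the phosphorylase shares in each genotype, and chance marks about 1 in 20 groups. The library is the one with muscle and mesenchyme transcripts, and its value is more than 3 times that of any *Atf4* null library.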

How the results depend on the processing

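*Pygm* and *Pygl* kept their direction and their adjusted p below 0.05 under all 17 alternatives, with log2 fold changes from -1.68 to -1.28 and from -2.78 to -2.39. *Ugp2*, *Pgm1* and *Ppp1r3c* stayed lower and did not pass under any of them. With the exactTest without wildtype replicate 5, chosen after seeing the data, *Pgm1* passed (log2 fold change -0.56, adjusted p 0.032). The small estimates changed sign. *Pygb* turned to 0.0206 under library size, 0.0546 without *Atf4* null replicate 4, 0.0303 without wildtype replicate 5 and 0.0295 by the exactTest without that library. *Gbe1* turned to 0.0441 under library size and 0.0461 without wildtype replicate 1. *Gys1* turned to -0.0065, -0.0653 and -0.0274 without *Atf4* null replicate 2, *Atf4* null replicate 4 and wildtype replicate 1. The cause was not tested. With 1 library left out, the estimates ran from -0.28 to 0.05 for *Pygb*, from -0.07 to 0.20 for *Gys1* and from -0.22 to 0.05 for *Gbe1*, and the difference in the *Pygm* share of phosphorylase transcripts, -7.50 percentage points with all libraries, ran from -11.6 to -2.73.

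Over all genes, 880 passed, with 1397 by DESeq2, 527 to 1207 with 1 library left out and 1545 by the exactTest without wildtype replicate 5. The lowest count came without *Atf4* null replicate 2 and the highest without wildtype replicate 5. In the list of other glycogen genes, 1 of 22 tested passed, 1 to 2 with 1 library left out (2 of 22 without wildtype replicate 5, beside 8.33% of all genes), and 4 of 22 by the exactTest without wildtype replicate 5, beside 10.7% of all genes. With the replicate number as a block, 852 genes passed, *Pygm* was at -1.63 and *Pygl* at -2.71, the same 2 members passed, and 2 genes of the list passed, *Hk2* being added. The numbers were not taken to pair the samples. Depth limits *Ppp1r3c* and *Pygl* most, with as few as 21 and 22 counts in an *Atf4* null library.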
